A study of Mus musculus with 2 samples.

Results

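The 10 genes described here belong to the Nodal and BMP branches of TGF-beta family signalling: Bmp4, Bmpr1a, Tdgf1, Lefty1, Lefty2, Smad2, Smad3, Smad4, Smad7 and Id1. They were taken by name from an allele-resolved expression table of 48550 rows, in which each of the 10 had 1 row, and 9 of them had enough reads to be tested. The cells were F121-6, female embryonic stem (ES) cells of a mouse hybrid, with 1 chromosome set from the 129 strain and 1 from *Mus musculus castaneus* (cas). They grew with serum and LIF on mitomycin-C-inactivated mouse embryonic fibroblasts, and their total nuclear RNA, which holds unspliced as well as mature transcripts, was sequenced in 2 libraries. The comparison in each library was 129 against cas, the allelic difference that the series' design names as a measured quantity. Both libraries come from a single line, so a difference between the alleles of this line need not hold for other crosses of these strains.

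In this family, a secreted ligand binds paired receptors at the cell surface, which phosphorylate SMAD proteins that then enter the nucleus with Smad4 and act on target genes. Nodal and activin signal through Smad2 and Smad3, and Nodal also needs the co-receptor Tdgf1 (Cripto). BMP ligands such as Bmp4 signal through type I receptors such as Bmpr1a to Smad1, Smad5 and Smad9. Lefty1 and Lefty2 are secreted antagonists of Nodal and are themselves induced by it, while Smad7 is an intracellular inhibitor induced by the same pathways. Id1, an inhibitor of basic helix-loop-helix factors, is a standard BMP target. In mouse ES cells, BMP4 is known to support self-renewal together with LIF, and Nodal signalling keeps Lefty genes active.

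Lefty1 and Lefty2 are neighbouring copies of an ancestral gene, and how far their sequences differ sets which reads can be given to which copy. Their coding sequences, both 1107 bases long in GENCODE M21 (GRCm38), were aligned without a gap and were identical at 1017 bases (91.9%). The stretch of 100 bases inside an exon with the most differences held 30 of them. It is shown for both genes on the plus strand, with differing bases in capitals, from chr1:180935148-180935247 for Lefty1 and chr1:180893222-180893321 for Lefty2.
Lefty1: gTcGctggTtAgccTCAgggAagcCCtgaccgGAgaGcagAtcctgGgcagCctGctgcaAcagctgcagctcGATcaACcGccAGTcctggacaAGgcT
Lefty2: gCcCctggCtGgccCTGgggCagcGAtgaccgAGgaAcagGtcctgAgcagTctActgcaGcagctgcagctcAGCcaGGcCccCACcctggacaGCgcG

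Of the 100-base windows in the annotated transcripts, 97 were shared between the Lefty genes, which is 5.85% of the windows of Lefty1 and 3.86% of those of Lefty2. For Tdgf1, 3.17% of windows also occurred in the pseudogene Tdgf1-ps1. For Bmpr1a, 2.96% lay in the antisense gene Gm17110, which had 0 reads in all 4 columns. The windows of Smad2, Smad3, Smad4, Smad7, Bmp4 and Id1 occurred in no other gene's transcripts. Intron sequence outside the annotated transcripts was not searched. The sources used here do not say how reads with more than 1 match were counted or whether strand was used. The part of such reads in the Lefty and Tdgf1 values was not tested.

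Library 1 held 28523744 reads assigned to an allele and library 2 held 31402765, of which 53.6% and 54.2% came from 129. The labels do not say whether separate cultures were used, so the spread between libraries may be technical. The p-values of the limma fit described below rest on the spread of genes of like abundance, not on a gene's own libraries. Ratios are given as log2 of 129 over cas, from reads scaled to CPM (reads relative to the total of the column) so that the typical gene lies at 0. On that scale an even gene has 55.1% of its reads from 129 in library 1 and 56.2% in library 2. The call was made where limma's p, adjusted by the Benjamini-Hochberg method, was under 0.05, among 15509 genes with at least 20 allele reads in each library. Of the ES cell markers examined, 9 of 10 were tested and Sox2 was listed at 0 in every column. The fibroblast markers summed to 816 and 938.8 scaled CPM from 129, against 147.5 and 162.1 from cas. Of these 20 markers, 10 were called toward 129 and none toward cas, while 5 were uncalled and 5 were under the read filter, with Lum, S100a4 and Twist1 at 0 throughout. No step set feeder RNA apart, and its part in the 129 reads below was not tested.

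A difference between the alleles was called for 4 of the 9 (44.4%), near the background of 43.9% of all tested genes, which include genes with fewer reads than any of the 9. The Nodal antagonists Lefty1 and Lefty2 were higher from 129, by 1.44-fold and 1.32-fold. The ligand Bmp4 and the common mediator Smad4 were higher from cas, with log2 ratios of -0.59 and -0.21. The call of Smad4 held only relative to the typical gene, since its unscaled reads were more numerous from 129. Among all tested genes, 21.9% were called higher from 129 and 22.0% higher from cas. The median ratio of the 9 genes was -0.07, against 0.00 for all tested genes, and the median size of their ratios was 0.16, against 0.40. Each of the 9 had at least 500 reads in all; the 9328 tested genes with that many had a median size of 0.30. The called ratios of Bmp4, Lefty1 and Lefty2 were larger in size than that median. No gene of the 9 was expressed from a single allele.

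**Figure D1:**
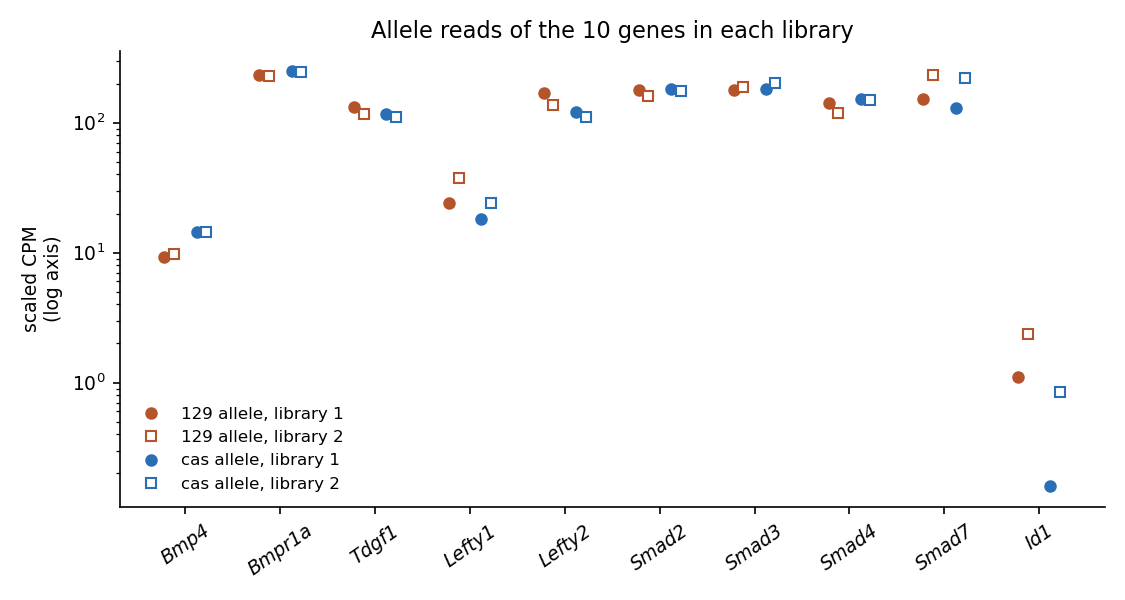
Reads of each gene from the 129 allele (left of each pair) and the cas allele, in scaled CPM on a log axis, with library 1 as filled circles and library 2 as open squares. The 129 points lie above the cas points in both libraries for Lefty1 and Lefty2 and below them for Bmp4; Id1 lies lowest, with 19 and 55 reads in all.

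**Figure D2:**
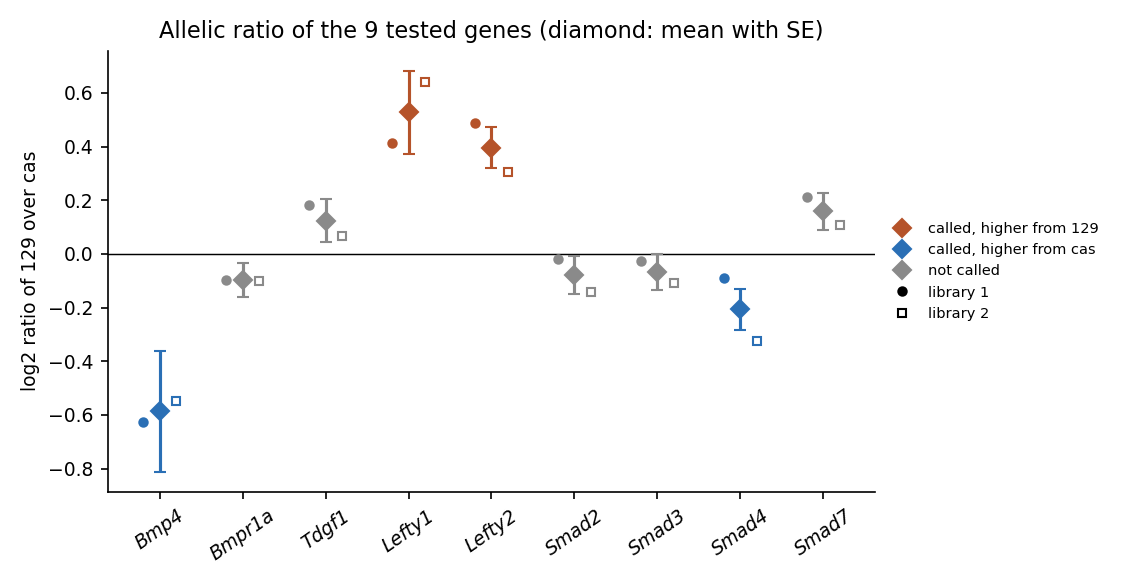
The log2 ratio of 129 over cas for each tested gene, with the mean and its SE as a diamond and the libraries beside it. Lefty1 (0.53) and Lefty2 (0.40) lie highest and Bmp4 (-0.59) lowest, and in each gene the libraries lie on the same side of 0.

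Bmp4, the only ligand of the set, gave 142 and 176 reads from 129, against 179 and 201 from cas, in libraries 1 and 2. Cas reads outnumbered 129 reads in both libraries, also before any scaling. The 129 share was 44.2% in library 1 (exact 95% interval 38.7 to 49.9) and 46.7% in library 2 (41.6 to 51.9). The log2 ratio was -0.59 (SE 0.22, adjusted p = 0.023 in limma), with -0.63 in library 1 and -0.55 in library 2. Exact intervals here and below cover counting error only. The 95% intervals given below for log2 ratios were made from the SE of the limma fit. Bmp4 lies on chromosome 14 (46383520 to 46390669, minus strand, mm10). On the opposite strand it overlaps Gm15222, which had 0 reads in all columns, and the end of Gm15217, by 89 bp. Gm15217, also the only tested gene within 250 kb of the Bmp4 start, held 12 and 29 reads of the 129 allele and 20 and 25 of the cas allele, and showed a ratio of -0.54 without a call (adjusted p = 0.51 in limma).

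Bmpr1a, a BMP type I receptor, had the most reads of the set, with 3554 and 4166 from 129, against 3093 and 3476 from cas. Its 129 share of 54.0% ± 0.74 (SD, n = 2) was close to that of an even gene. The ratio was -0.10 in each library, with a 95% interval of -0.22 to 0.03 (adjusted p = 0.21 in limma), so any excess from cas beyond 0.22 on the log2 scale lay outside the interval. An exact binomial test in each library, which counts reads alone, called Bmpr1a toward cas in both (adjusted p = 0.013 and 0.0053). With 1 shared library size it was called toward 129 (0.23, adjusted p = 0.00091 in limma), and with the deposited column totals the ratio was 0.0056, so no sign can be read. Around it lie 9 tested genes, 3 called toward 129, 2 toward cas and 4 uncalled, with a median ratio of -0.01. The nearest 3, 9230112D13Rik, Ldb3 and Opn4, were all uncalled.

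Tdgf1 encodes the membrane-anchored co-receptor that Nodal requires. It gave 2028 and 2091 reads from 129, against 1455 and 1556 from cas, a 129 share of 57.8% ± 0.63 (SD, n = 2). The log2 ratio was 0.12 (95% interval -0.03 to 0.28), with 0.18 in library 1 and 0.07 in library 2, and was not called (adjusted p = 0.21 in limma). The exact binomial test called Tdgf1 toward 129 in library 1 (adjusted p = 0.00065) but not in library 2 (0.229). Its 7 tested neighbours within 250 kb held 1 call toward 129 and 2 toward cas. The nearest 3 were Lrrc2 (-0.11, uncalled), Gm10030 (2.48, called, from 68 reads) and Tmie (0.55, uncalled).

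Lefty2 gave 2588 and 2455 reads from 129, against 1501 and 1548 from cas. The 129 share was 63.3% in library 1 (exact 95% interval 61.8 to 64.8) and 61.3% in library 2 (59.8 to 62.8), above that of an even gene in both. The log2 ratio was 0.40 (SE 0.08, adjusted p = 2e-06 in limma), with 0.49 in library 1 and 0.30 in library 2. Lefty1, its paralogue, gave 369 and 676 reads from 129, against 225 and 337 from cas. Its 129 share was 62.1% (58.1 to 66.0) in library 1 and 66.7% (63.7 to 69.6) in library 2. The ratio was 0.53 (SE 0.15, adjusted p = 0.0023 in limma), with 0.41 in library 1 and 0.64 in library 2. The order of the paralogues differed between the libraries: the ratio was larger in Lefty2 in library 1 and in Lefty1 in library 2.

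The Lefty genes start 41.9 kb apart on the plus strand of chromosome 1, at 180935022 for Lefty1 (to 180938400) and 180893108 for Lefty2 (to 180899103). Apart from the Lefty genes, 9 tested genes start within 250 kb of either. Toward 129, 2 of them were called, and none toward cas, with a median ratio of 0.17 and a positive ratio in both libraries for 5. The share called toward 129 was near that of all tested genes, 21.9%, with 22.0% of all called toward cas. Sde2, an RNA splicing factor gene on the far side of Lefty2, was called at 0.36 (SE 0.10, adjusted p = 0.00063 in limma). Nvl, a ribosome biogenesis ATPase gene, was called at 0.17 (SE 0.07, adjusted p = 0.025). Tmem63a, which starts 7.3 kb from Lefty1, had a ratio of -0.32 (adjusted p = 0.11).

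**Figure D3:**
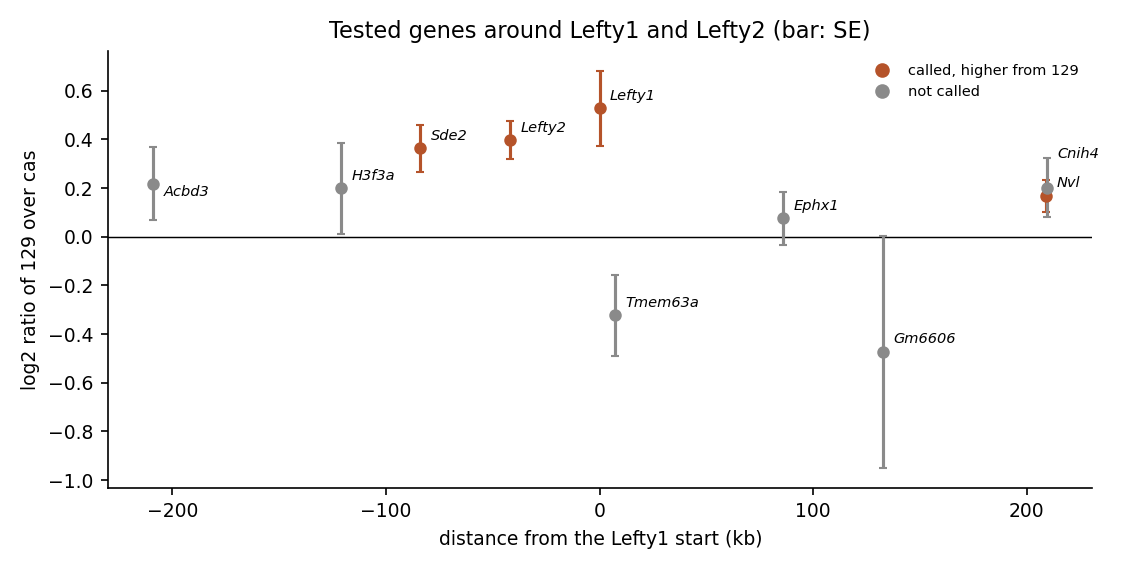
The log2 ratio of 129 over cas, with its SE, of most tested genes within 250 kb of the Lefty1 start, against the distance from that start in kb. Lefty1, Lefty2, Sde2 and Nvl were called higher from 129; Tmem63a (-0.32) and the pseudogene Gm6606 (-0.47) lie below 0 without a call.

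The receptor-regulated SMADs of the Nodal branch were close to even. Smad2 gave 2737 and 2902 reads from 129, against 2254 and 2494 from cas, with a log2 ratio of -0.08 (95% interval -0.22 to 0.06, adjusted p = 0.38 in limma). Smad3 gave 2729 and 3392 reads from 129, against 2259 and 2851 from cas, with a ratio of -0.07 (-0.20 to 0.07, adjusted p = 0.45). The exact binomial test called Smad2 and Smad3 toward cas in library 2 (adjusted p = 0.0007 and 0.0053) but not in library 1 (0.755 and 0.638). In both genes the raw reads from 129 were more numerous, and the sign of the ratio turned positive with the deposited column totals (0.02 and 0.04) and with 1 shared library size (0.25 and 0.26). No sign can therefore be read from either. Smad2 had no tested gene within 250 kb of its start, and Smad3 had Aagab alone (-0.17, uncalled).

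Smad4, the partner of all receptor-regulated SMADs, gave 2196 and 2161 reads from 129, against 1900 and 2109 from cas. Its 129 share of 52.1% ± 2.12 (SD, n = 2) lay below that of an even gene. The ratio was -0.21 (SE 0.08, adjusted p = 0.017 in limma), from -0.09 in library 1 and -0.32 in library 2. The value thus rested on library 2: the exact binomial test in library 1 alone gave an adjusted p of 0.083. With 1 shared library size the ratio was 0.12. On the opposite strand Smad4 overlaps the processed pseudogene AC132418.2 by 274 bp, for which the data hold no row. Of 4 tested neighbours, Elac1 was higher from 129 (1.14, adjusted p = 0.027), Mex3c from cas (-0.29, adjusted p = 0.024), the ribosomal RNA copy n-R5-8s1 also from cas (-6.46), and Me2 was not called (0.14).

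Smad7, the inhibitory SMAD, gave 2309 and 4259 reads from 129, against 1622 and 3082 from cas. The 129 share of 58.4% ± 0.51 (SD, n = 2) lay above that of an even gene in both libraries. The ratio of 0.16 (SE 0.07), with 0.21 in library 1 and 0.11 in library 2, missed the threshold narrowly (adjusted p = 0.051 in limma). The exact binomial test called it toward 129 in both libraries (adjusted p = 1.8e-05 and 0.0035). Smad2 (76241580 to 76310963), Smad4 (73639009 to 73703780) and Smad7 (75367529 to 75395935) all lie on chromosome 18, with the starts of Smad7 and Smad2 874.1 kb apart. Their ratios were -0.08, -0.21 and 0.16, and with 1 shared library size 0.25, 0.12 and 0.49. The only tested neighbour of Smad7, 2010010A06Rik, was uncalled (0.44).

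Id1, the BMP target, was seen in 17 and 43 reads of the 129 allele and in 2 and 12 of the cas allele. Its 19 reads in library 1 were 1 short of the filter, while Bmp4, the tested gene of the set with the fewest reads, had 321 there. The 129 share was 89.5% (exact 95% interval 66.9 to 98.7) in library 1 and 78.2% (65.0 to 88.2) in library 2. Both intervals lay above the share of an even gene. Without a read filter the ratio was 1.80 (SE 0.79, adjusted p = 0.073 in limma), so the gene was not called. The summed share of the fibroblast markers was 87.2% in library 1 and 88.1% in library 2. Single tested markers ranged from 51.95% (Tagln) to 99.65% (Col3a1) in their mean share over the libraries. The part of feeder RNA in the Id1 reads was not tested. Of 5 tested neighbours, Cox4i2 was called toward 129 (1.07, from 0.13 in library 1 and 2.01 in library 2), Bcl2l1 toward cas (-0.32) and H13 was uncalled (-0.05). In bulk RNA, more cells of a type and more RNA per cell cannot be told apart.

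The total of both alleles varied between the libraries far more in some genes than in others. Smad7 had 233.8 CPM in library 2 and 137.8 in library 1, a ratio of 1.70 (exact 95% interval 1.63 to 1.76). Lefty1 had 32.3 in library 2 and 20.8 in library 1 (1.55, interval 1.40 to 1.72), and Id1 had 1.75 and 0.67 (2.63, interval 1.54 to 4.69). Lefty2, by contrast, had 127.5 in library 2 and 143.4 in library 1 (0.89, interval 0.85 to 0.93). The other 6 genes lay between 0.95 and 1.14. Among tested genes, the ratios of Smad7 and Lefty1 stood at percentiles 95.7 and 92.8. In Smad7 both alleles were higher in library 2, by 1.66-fold from 129 and 1.75-fold from cas, and in Lefty1 by 1.65-fold and 1.38-fold. With 1 library on each side there is no test of these differences. The median of the tested fibroblast markers also lay above that of all tested genes in library 2 over library 1 (0.37 against 0.09 on the log2 scale), and its part in these totals was not tested.

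**Figure D4:**
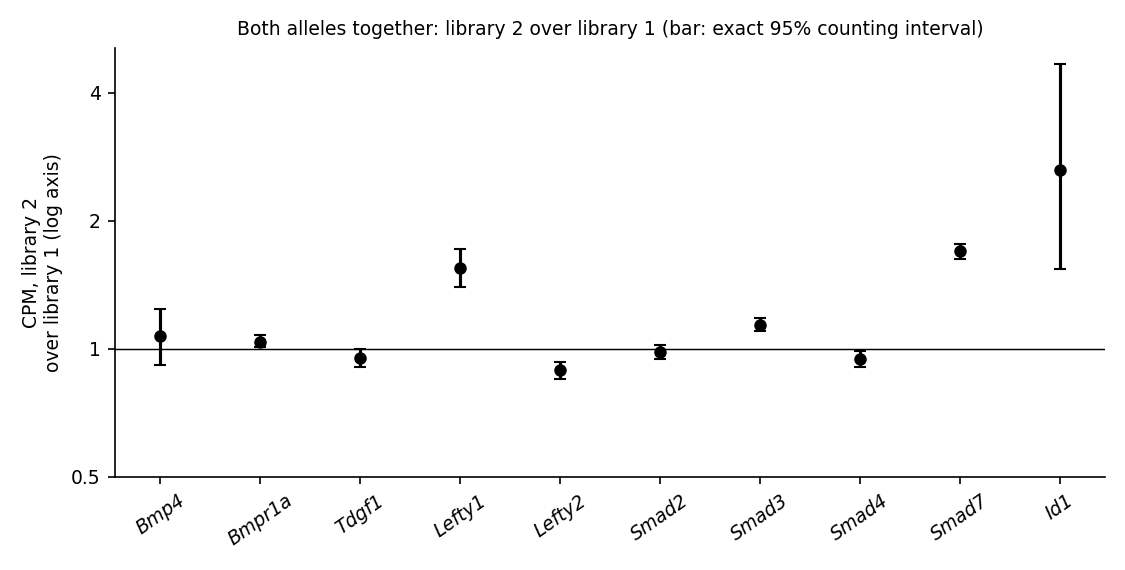
CPM of both alleles together in library 2 over library 1, on a log axis, with the exact 95% counting interval. Id1 (2.63), Smad7 (1.70) and Lefty1 (1.55) lie above the other genes, and Lefty2 (0.89) lies lowest.

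Promoter sequences from RefSeq (GRCm38.p6, 250 bases before to 50 after the start) were matched for 4 of the 10 genes, Tdgf1, Smad3, Bmp4 and Bmpr1a. They are shown for Bmp4, the gene of the set with the largest ratio toward cas, and for Tdgf1, the Nodal co-receptor, whose ratio of 0.12 was not called, as the reference sequence from which the strain alleles depart at positions not analysed here. Searched on both strands were the SMAD box GTCTAGAC, the shorter CAGAC, the GC-rich SMAD motif GGCGCC and the FOXH1 motif AATNNACA, where N is any base. Matches are in capitals, and no match overlapped another. The Bmp4 promoter (chr14:46390620-46390919, minus strand) held none of these.
Bmp4: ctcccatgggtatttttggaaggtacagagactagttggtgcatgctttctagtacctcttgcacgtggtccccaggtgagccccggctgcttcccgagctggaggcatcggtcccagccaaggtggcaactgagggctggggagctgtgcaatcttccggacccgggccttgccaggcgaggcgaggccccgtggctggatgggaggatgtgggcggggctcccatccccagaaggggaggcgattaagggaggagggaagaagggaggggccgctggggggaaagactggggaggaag

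The Tdgf1 promoter (chr9:110946109-110946408, minus strand) held 2 FOXH1 motifs and 1 CAGAC. FOXH1 is the factor that brings Smad2 and Smad3 to Nodal targets.
Tdgf1: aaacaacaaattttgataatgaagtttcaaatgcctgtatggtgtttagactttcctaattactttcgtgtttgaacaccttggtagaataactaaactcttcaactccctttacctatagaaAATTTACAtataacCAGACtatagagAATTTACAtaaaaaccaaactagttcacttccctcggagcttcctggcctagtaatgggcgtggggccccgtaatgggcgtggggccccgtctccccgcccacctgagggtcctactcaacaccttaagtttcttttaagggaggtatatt

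Among all 32851 promoters of this length, 12.2% held a FOXH1 motif, 49.6% held CAGAC, 11.9% the GC-rich motif and 0.21% the SMAD box. The Bmpr1a promoter held 1 GC-rich motif and the Smad3 promoter none of the 4. A match describes letters in the reference, not binding.

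Other genes of the pathways were drawn from a list of 83, of which 82 were in the table and 64 were tested. Toward 129, 16 were called, and toward cas 14, with 34 uncalled, or 46.9% called in all, again near the background of 43.9%. The median ratio was 0.03. The roles differed in their counts, and differences between roles were not tested.

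Among 16 tested genes listed as ligands, 3 were higher from 129 and 1 from cas. The 16 include Bmp1, a protease rather than a ligand, which was not called. Tgfb3 and Tgfb1, ligands of the TGF-beta branch, had ratios of 2.33 (SE 0.43, adjusted p = 3.5e-07 in limma) and 1.44 (SE 0.48, adjusted p = 0.0081). Tgfb2 was called at 0.74, but from 0.10 in library 1 and 1.38 in library 2. Bmp6 was higher from cas at -0.68 (SE 0.16, adjusted p = 0.00014), but with 1 shared library size it had -0.35 (adjusted p = 0.062). Bmp7, with the most reads of the ligands, had -0.09 without a call. Nodal itself, named here after its value was seen, gave 268 and 282 reads from 129, against 139 and 190 from cas. Its ratio of 0.43 (SE 0.20) resembled those of the Lefty genes in size but was not called (adjusted p = 0.076).

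Of 11 tested receptors and co-receptors, 8 were called (72.7%, against 43.9% of all tested genes). Higher from cas were 6 of them and from 129 2, against 22.0% and 21.9% of all tested genes, with a median ratio of -0.32. Tgfbr2, the type II receptor for TGF-beta, had -1.04 (SE 0.21, adjusted p = 3.9e-06), the activin and Nodal receptors Acvr2b and Acvr2a had -0.84 (SE 0.15) and -0.32 (SE 0.07), and Rgma, a BMP co-receptor, had -0.78 (SE 0.15). Bmpr2, the type II partner of Bmpr1a, had the most reads of the group and a ratio of 0.10 (adjusted p = 0.21). Acvr2a lost its call with 1 shared library size, at 0.01.

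Among 6 tested SMADs and partners, Smad6, the other inhibitory SMAD, was higher from 129 with 65.3% ± 0.11 of its reads (SD, n = 2) and a ratio of 0.58 (SE 0.12, adjusted p = 2.9e-06). Smad9 was higher from cas (-0.96, SE 0.32, adjusted p = 0.0085), as was Trim33, a Smad4-binding ubiquitin ligase gene (-0.16, adjusted p = 0.042). With 1 shared library size Trim33 turned to 0.17 and was called toward 129 (adjusted p = 0.030 in limma), and Smad9 lost its call, at -0.63 (adjusted p = 0.089). Unscaled reads of Trim33 were more numerous from 129, with 3018 and 3035 against 2727 and 2661. Its call was also lost with the column totals, the deposited RPKM, no read filter, the filter of 100 reads, a pseudocount of 0.01, no block and beyond 1.5-fold. A pseudocount of 0.5, the robust fit and the exact binomial test kept it. Zfyve9, the SARA anchor of Smad2 and Smad3, had -0.14 without a call.

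The extracellular inhibitors and convertases held 3 genes higher from 129, 3 from cas and 5 not called. The proprotein convertases Pcsk6 and Pcsk5 went opposite ways. Pcsk6, which can process Nodal, gave 8535 and 10468 reads from 129, against 3305 and 4039 from cas (1.04, SE 0.05, adjusted p = 2.3e-80), and Pcsk5 gave 325 and 381, against 873 and 788 (-1.56, SE 0.13, adjusted p = 1.8e-31). Bmper, a BMP-binding protein, had 1.66 (SE 0.33). Ltbp1 and Ltbp3, which tether latent TGF-beta, had -0.40 (SE 0.06) and -0.66 (SE 0.26), the second from -0.24 in library 1 and -1.08 in library 2. With 1 shared library size both lost their calls, at -0.07 (adjusted p = 0.27 in limma) and -0.34 (adjusted p = 0.28).

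Of 10 intracellular inhibitors, 5 were higher from 129 and 1 from cas. The SMAD corepressor genes Tgif1 and Skil had 0.95 (SE 0.13, adjusted p = 3.2e-12) and 0.71 (SE 0.09, adjusted p = 1.3e-13), while Bambi, a decoy receptor, had -0.97 (SE 0.28, adjusted p = 0.0022). Nedd4l and Ski had the most reads and ratios of -0.06 and -0.07 without a call. Of 10 tested targets, 7 were not called. Among the called ones, Id4, an inhibitor of basic helix-loop-helix factors like Id1, was higher from 129 (2.79, SE 0.47), and Eomes was higher from cas (-0.95, SE 0.40, adjusted p = 0.041 in limma). Eomes lost its call without a read filter (adjusted p = 0.074), with a pseudocount of 0.01 (adjusted p = 0.054), with the column totals (adjusted p = 0.072), with 1 shared library size (-0.63, adjusted p = 0.18), without the block (adjusted p = 0.098), with the deposited RPKM (-0.51, adjusted p = 0.11) and beyond 1.5-fold (adjusted p = 0.74). Tbx3, with the most reads of the targets, had 0.01, from 0.14 in library 1 and -0.12 in library 2. The summed 129 share of the fibroblast markers given above stands beside the 129 shares of 86.9% for Tgfb3 and 89.6% for Id4, and the part of feeder RNA in these was not tested.

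**Figure D5:**
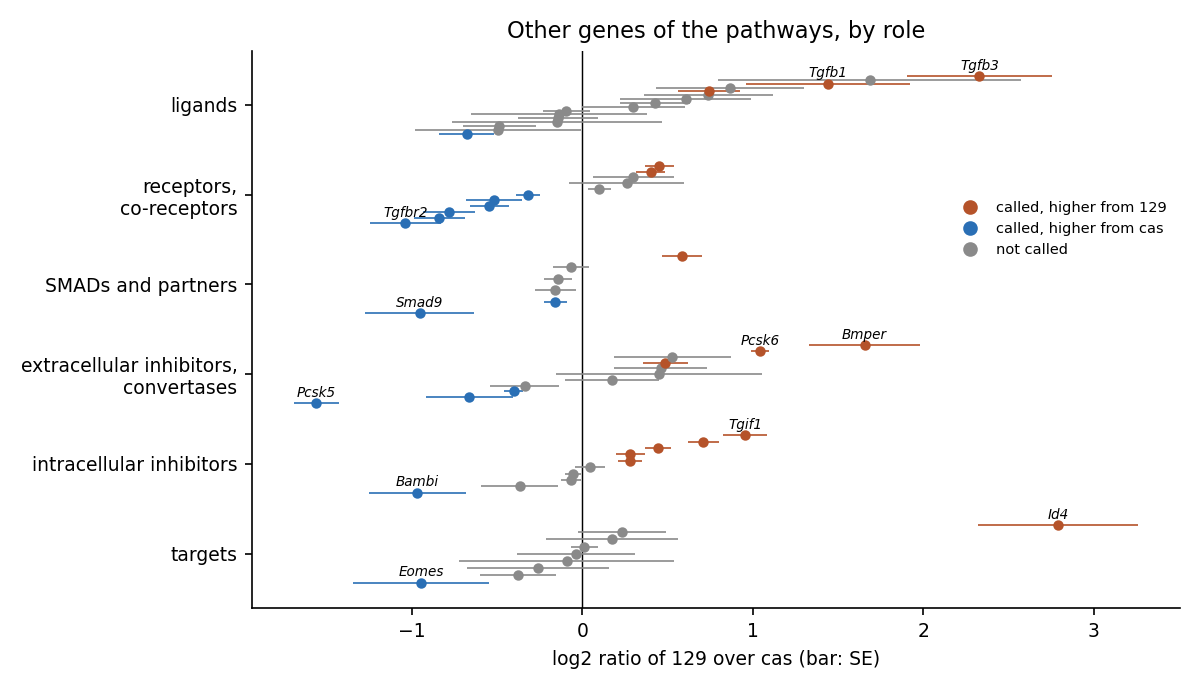
The log2 ratio of 129 over cas, with its SE, for most tested genes of the wider list, by role. Among receptors 6 of 11 were called toward cas and 2 toward 129, and among intracellular inhibitors 5 of 10 were called toward 129 and 1 toward cas. Each of the other roles also has calls on both sides. Of all tested genes, 21.9% were called toward 129 and 22.0% toward cas, and differences between roles were not tested.

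Within that list, the genes with ratios nearest to Lefty1 in both libraries were Acvr1 (0.36 and 0.54 in libraries 1 and 2), Chrd (0.30 and 0.60) and Twsg1 (0.48 and 0.49), each within 0.15 of Lefty1 in either library. Those nearest to Bmp4 were Tgfbr1 (-0.59 and -0.50), Gdf15 (-0.61 and -0.39) and Bmpr1b (-0.44 and -0.60), within 0.19. Chrd and Gdf15 rested on 95 and 144 reads and were not called.

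The calls of the set depended on the model. Without pairing the alleles of a library (no block), none of the 9 genes was called. In limma without the block, adjusted p was 0.058 for Lefty2, 0.098 for Bmp4, 0.14 for Lefty1 and 0.27 for Smad4. The test beyond 1.5-fold also called none, but it could not decide whether the alleles differ. Bmp4 lay at about 1.5-fold and the other tested genes of the set below it, so no call was possible. With 1 shared library size, which moved the median of all genes to 0.32, 7 of the 9 were called higher from 129 and none from cas, and Bmp4 had -0.26 (adjusted p = 0.35).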

How the data were processed

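Total nuclear RNA was sequenced in 2 libraries as paired-end reads of 100 bp, per the labels' protocols. The same protocols describe strand-specific libraries and the addition of reads from an earlier sequencing run. Alignment used Bowtie2 on mm10, per the submitters' processing notes. The sources used here name no counting program or set of strain variants and do not say whether strand was used. The values that the authors deposited are RPKM for each allele and library, although the headers call them counts. Multiplied by the deposited row length they were whole multiples of 1 step per column, for 100% of values within 0.01 read, and these reads were used. Rows were joined to GENCODE M21 by name, chromosome and strand (95.6% matched). Reads were scaled to CPM with trimmed means of M values, and log2 of the scaled reads plus 0.1 was fitted in limma 3.58.1 (R 4.3.3) with the library as a block and a trended spread. The spread was shared between genes of like abundance (infinite prior degrees of freedom), so that neither an SE nor a limma p shows how far a gene's own libraries differed. The block was used because both alleles were read from 1 RNA. Fold changes on this scale understate those of genes with few reads. Rows of chromosome Y were left out, and p-values were adjusted over all tested genes. The fit was tested on simulated data. Exact intervals are Clopper-Pearson intervals. The genes, lists and tests were chosen with earlier results of these data known. From the wider list the text names, in each role, the 2 tested genes with the most reads and up to 3 further called genes with the largest ratio and the same direction in each library. For the called gene of the set with the largest ratio in each direction it also names the 3 genes nearest in ratio, and for neighbours the counts within 250 kb of the gene's start with the nearest 3. Nodal, Nvl, Gm6606 and n-R5-8s1 are named outside this rule, after their values were seen. Some items that the rule names enter the counts but are not reported here. The marker list for primitive endoderm gave 1 of 5 tested genes higher from 129 and 1 from cas, that for ES cells 1 and 4 of 9. Alternatives were other scalings, read filters and pseudocounts, the deposited RPKM, a robust fit, no block, a test beyond 1.5-fold, an exact binomial test in each library and each library alone.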

Additional observations from a re-analysis of the deposited data

How the results depend on the processing

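Of the 99 values of the 9 tested genes over 11 alternatives, 65 kept their direction and side of the threshold. With the sign kept, 16 lost a call and 8 gained a call, and 10 values changed sign. Calls that moved together with the sign are counted only among the 10. With 1 shared library size, Smad2, Smad3 and Bmpr1a changed sign and gained a call, and Smad4 changed sign and lost its call. Lefty1 and Lefty2 stayed positive and Bmp4 negative under all 11, and Lefty2 was called under 9, Lefty1 under 8 and Bmp4 under 6. Smad4 was called under 4 only, fewer than Smad7 (5), which the main fit did not call. In limma, the Smad4 call was also lost with the column totals (adjusted p = 0.27), the filter of 100 reads (0.052) and the deposited RPKM (0.51). Each gene kept its sign in either library alone, where no limma test is possible, since 1 library leaves no residual degrees of freedom. The robust fit gave the same ratios and adjusted p as the main fit for each of the 9, so its values among the 65 are no separate check. The 16 lost calls include those of Bmp4, Lefty1, Lefty2 and Smad4 beyond 1.5-fold, which follow from the sizes of their ratios.

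With 1 shared library size, 7 genes of the set were called higher from 129 and 0 from cas, 30 and 5 of the wider list, and 6504 and 1492 of all genes; the signs changed for Smad2 (0.25), Smad3 (0.26), Smad4 (0.12), Bmpr1a (0.23), Bmp7 (0.23), Acvr2a (0.01), Trim33 (0.17), Zfyve9 (0.18), Nedd4l (0.27) and Ski (0.26). With the deposited column totals, 4 and 0 of the set were called, 18 and 11 of the wider list, and 4190 and 2578 of all genes. Under these totals Smad2 (0.024), Smad3 (0.036), Bmpr1a (0.0056), Bmp7 (0.0093), Nedd4l (0.0483) and Ski (0.0363) changed sign. With the deposited RPKM as they stand, 1 and 0 of the set were called, 11 and 3 of the wider list, and 1780 and 982 of all genes; Smad2 (0.023), Smad3 (0.0345), Bmpr1a (0.0054), Bmp7 (0.0090), Nedd4l (0.0482) and Ski (0.0362) changed sign. The shared size moved the median of all genes to 0.32 and the column totals to 0.10. With a filter of 100 reads a library, 3 and 1 of the set were called, 15 and 11 of the wider list, and 2676 and 2694 of all genes. Without the replicate block, 0 and 0 of the set were called, 12 and 8 of the wider list, and 2150 and 1804 of all genes. Beyond 1.5-fold, 0 and 0 of the set were called, 6 and 1 of the wider list, and 1188 and 794 of all genes. For single libraries, Bmp7 ranged from -0.23 to 0.046 and Tbx3 from -0.12 to 0.14. Depth limited Id1 most, with 74 reads in all, and Bmp4, with 698.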

Other observations

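The row lengths by which the deposited RPKM were divided differ from the annotated spans of these genes, by factors that vary from gene to gene. What the lengths stand for was not tested. Smad4 has a deposited length of 2905 bp and an annotated span of 64772 bp, and Smad2 has 45294 bp and 69384 bp. The deposited RPKM in library 1 were 49.4 from 129 and 49.5 from cas for Smad4, against 3.95 and 3.76 for Smad2. The recovered reads of both alleles, per kb of annotated span, were 63.2 for Smad4 and 71.9 for Smad2 in the same library. Id1 is the opposite case, with a deposited length of 12960 bp for a gene that spans 1160 bp. Per kb of span, the reads of library 1 were 682 for Lefty2, 531 for Tdgf1, 176 for Lefty1, 138 for Smad7, 71.8 for Bmpr1a, 44.9 for Bmp4, 44.8 for Smad3 and 16.4 for Id1. These levels count allele-assigned reads alone. The allelic ratios were made from recovered reads. Their recovery used the deposited length, which is the same for both alleles of a gene, and did not use the annotated span.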
